A study of Mus musculus with 4 samples.

Results

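The genes described here encode proteins of the complement and coagulation cascades, which the liver makes and releases into the blood. They are a list of 37 gene symbols whose rule uses no measured value, though earlier results of these data were known when it was drawn up, and 36 of the 37 were among the 19465 genes of the count matrices; the one that was not is C1s1, a protease of the complement C1 complex. Transcripts were counted with Visium, a slide of barcoded capture spots that each cover several cells, in formalin-fixed paraffin-embedded liver sections from 4 mice. The mice of the healthy group (n = 1 section) and of the fibrotic group (n = 2) had the genotype HK2fl/fl; they carry a floxed gene for hexokinase 2, an enzyme that starts glycolysis. The healthy mouse received olive oil, and the fibrotic mice received carbon tetrachloride (CCl4), a toxin activated by pericentral hepatocytes, at 1 µL/g body weight 2 times a week for 6 weeks by the design text and for 4 or 6 weeks by the sample protocol. The mouse behind the Hk2-deleted fibrotic section (n = 1) was PDGFRBcreERT2/Hk2fl/fl and received CCl4 too; in it tamoxifen activates a Cre driven by Pdgfrb, a gene of stellate and other mural cells and not of hepatocytes. All mice were labelled male and 5 months old, and all received tamoxifen at 75 mg/kg for 5 days, followed by 2 weeks of waiting, so the controls carry the drug exposure but not the Cre.

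Complement is a chain of serum proteases that marks and lyses microbes: antibodies or sugars on a surface trigger the classical and lectin routes, both meet the alternative route at C3, and C5 to C9 then build a pore. Coagulation is another protease chain, which ends when thrombin turns fibrinogen into fibrin, and plasmin, made from plasminogen, later dissolves it. Hepatocytes are the main source of nearly all these proteins, and several of them, fibrinogen and C3 above all, are acute phase proteins that rise in inflammation.

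The sections held 2577 to 4134 spots and 40585039 to 67479047 unique molecular identifiers (UMIs, counted molecules), with medians of 13665 to 15588 UMIs per spot. Hepatocyte markers were high in every section, and Alb (albumin) alone took 6.88% to 13.5% of UMIs. The summed neutrophil markers (6 of 6 detected) reached 17.8 CPM (counts put on a common total per section) in healthy liver and 515 to 1182 CPM in the CCl4-treated sections, and the summed stellate cell and fibroblast markers (6 of 6) reached 240.2 CPM against 511 to 690 CPM. In whole sections, fewer hepatocytes and less RNA per hepatocyte cannot be told apart. Hk2 itself stood at 2.22 normalised CPM in the healthy, 4.34 and 4.02 in the fibrotic and 3.21 in the Hk2-deleted section. The fibrotic section called replicate 1 went against its label: the Y-linked Eif2s3y was at 0.515 normalised CPM there and at 58.0 to 83.9 in the other sections, although the mouse was labelled male. Some of the main values that include this section, though not all, are therefore also given without it.

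**Figure D1:**
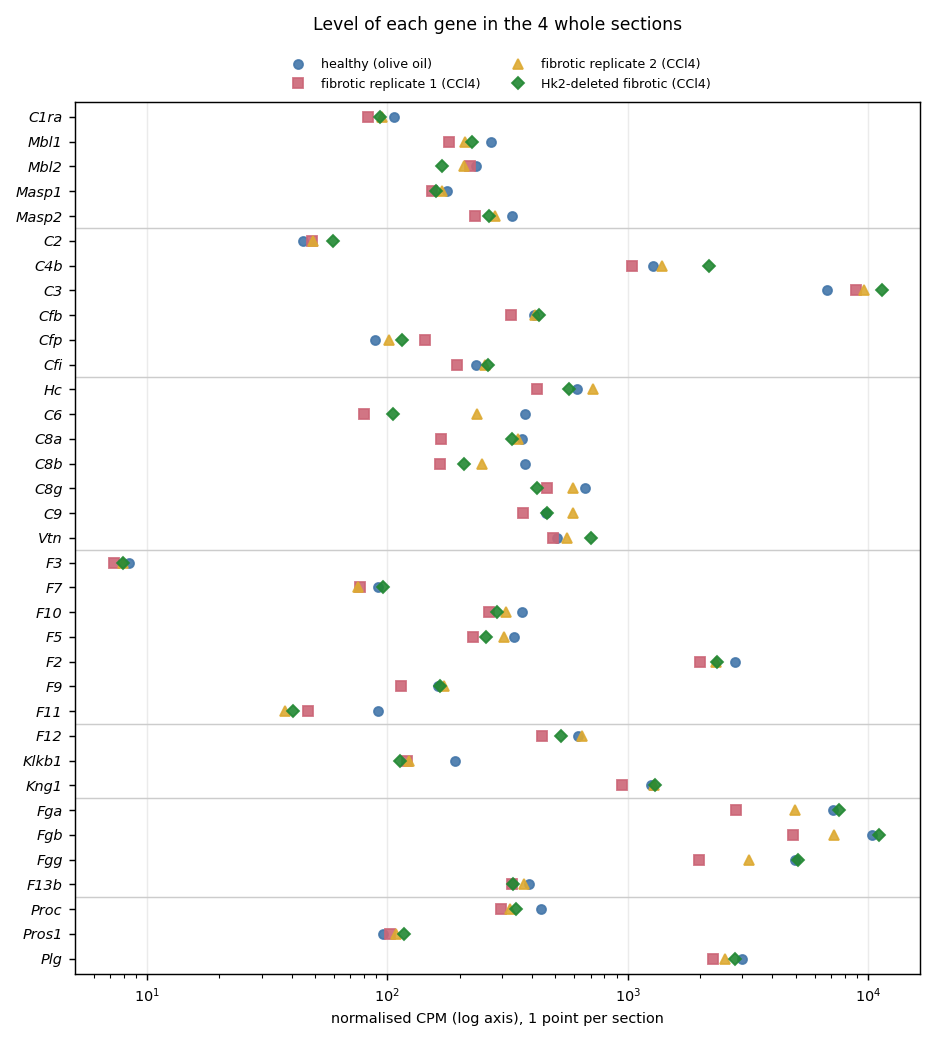
Level of 35 of the 36 genes in each whole section, in normalised CPM on a log axis, with 1 point per section and grey lines between the functional groups; Cfd is left out because it is near 0. Fga, Fgb and Fgg lie lowest in fibrotic replicate 1 and highest in the Hk2-deleted section, F11 lies above the 3 CCl4-treated sections in the healthy one, and C6 spans 79.9 to 374.

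Between whole sections of fibrotic and healthy liver, the differences of most cascade genes did not exceed the spread that the test allows for. Of the 36 genes, 3 were lower in the fibrotic sections (C6, F11 and Cfd) and 0 were higher by edgeR's quasi-likelihood test at an adjusted p under 0.05; Cfd passed the filter on low counts only through the healthy section, where it is high, so its call carries no weight. Across all 14125 genes tested, 13.7% were called in this comparison, 4.01% lower and 9.64% higher. The median log2 fold change of the 36 genes was -0.26, against 0.00 over all genes, and 30 of the 36 values were negative. A list of 20 other secreted hepatocyte proteins had a median of -0.24, with 15 negative and 0 called. For the 36 genes the median was -0.15 with 23 negative without fibrotic replicate 1, and -0.49 with 32 negative without replicate 2. The sign depended on the scaling: with library size alone, which moved the median of all genes to 0.34, the median of the cascade genes was 0.07, 4 were called lower and 2 (C3 and Cfp) higher. The healthy section lay above both fibrotic sections for 23 genes, below both for 4 and between them for 9. How many of all genes had each order was not counted. The p-values measure the spread between these sections only, and the test takes the single healthy and Hk2-deleted sections to vary as the fibrotic pair does. Fibrotic replicate 1, which went against its male label, is 1 of that pair. Whatever sets it apart is thus part of that spread and of the fibrotic values, and cannot be told apart from other variation.

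The 5 measured genes of the classical and lectin starting steps all had negative values, and none was called. Mbl1, a mannose-binding lectin that recognises microbial sugars, stood at 269 normalised CPM in the healthy, 180 and 210 in the fibrotic and 225 in the Hk2-deleted liver. Its log2 fold change with CCl4 was -0.47 ± 0.27 (SE; edgeR adjusted p = 0.283), and -0.36 without fibrotic replicate 1. Its relative Mbl2 stood at 234, 220, 207 and 169 in the same order, so that the Hk2-deleted section was the lowest. Values for C1ra, Masp1 and Masp2, the proteases of these steps, ran from -0.13 to -0.36.

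At the C3 step the levels leaned the other way for 3 of 7 genes. C3, the protein on which all complement routes converge, was at 6742 normalised CPM in healthy liver, 8926 and 9567 in the fibrotic livers and 11419 with Hk2 deleted. The 3 CCl4-treated sections were thus all above the healthy one, but the log2 fold change of 0.46 ± 0.78 did not pass the test (edgeR adjusted p = 0.751); it was 0.51 without fibrotic replicate 1. C4b, whose product joins the classical C3 convertase, was at 1273 in healthy liver, 1039 and 1382 in fibrotic replicates 1 and 2 and 2183 with Hk2 deleted; its near-identical copy C4a has no row of its own in the matrices, so UMIs of both may be counted in it. Cfp, encoding properdin, which stabilises the alternative convertase and is made by leukocytes more than by hepatocytes, stood at 88.7 in healthy liver, 144 and 101 in fibrotic replicates 1 and 2 and 115 with Hk2 deleted. Its log2 fold change was 0.47 ± 0.26 (edgeR adjusted p = 0.26), and 0.19 without fibrotic replicate 1. C2, Cfb and Cfi, the proteases that build or cut the convertases, had values from -0.14 to 0.14.

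Cfd encodes adipsin, the alternative pathway protease that fat cells make in quantity. It had 41 UMIs in healthy liver, 1 and 0 in fibrotic replicates 1 and 2 and 3 with Hk2 deleted. The healthy level was 69.0 times that of fibrotic replicate 1 (exact 95% interval of counting error, 11.7 to 2792) and 21.6 times that of the Hk2-deleted section (6.88 to 109), and at least 9.39-fold higher than in fibrotic replicate 2 by the exact lower bound (12.1 times with 0 taken as 3 counts). The adipocyte marker list summed to 0.67 CPM in the healthy section and 0.28 to 0.39 in the others, with Lep at 0 and Adipoq at 1 UMI in the healthy section. Cidec, a lipid droplet gene of that list, was at 0.711 normalised CPM in the healthy section and 0.169 to 0.352 in the others. It made up most of each sum, since Adipoq, Retn, Plin1 and Lep were near 0 in every section. Adipoq was not lower in fibrotic replicate 1 than in the healthy section. The part of fat cells in the Cfd values was not tested.

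Of the pore-forming genes, C6 was the one called. C6, the first protein that C5b recruits into the pore, was at 374 normalised CPM in healthy liver, 79.9 and 236 in fibrotic replicates 1 and 2 and 106 with Hk2 deleted. The healthy level was the highest of the 4, while the fibrotic pair were far apart and the Hk2-deleted section fell between them. C6 was lower with CCl4 by 1.24 ± 0.39 on the log2 scale, or 2.37-fold (edgeR adjusted p = 0.0376). Without fibrotic replicate 1 the value was -0.66 and without replicate 2 it was -2.24, neither with a test, and C6 was not called in 3 of 7 alternatives, among them DESeq2. C8b was at 375, 165, 247 and 208 in the order healthy, fibrotic 1 and 2, and Hk2-deleted, so that all treated sections lay below the healthy one. Its log2 fold change of -0.87 ± 0.30 missed the threshold (edgeR adjusted p = 0.0582), though it was called in 5 of 7 alternatives; it was -0.61 without fibrotic replicate 1. C8a, C8g, C9, Hc (which encodes C5) and Vtn (vitronectin, which binds the forming pore) were between -0.49 and 0.07 and none was called.

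Among the clotting proteases, F11 was the clearest case. F11 encodes factor XI, which carries the contact signal into the intrinsic pathway, and its level was 91.2 normalised CPM in healthy liver, 46.8 and 37.7 in fibrotic replicates 1 and 2 and 40.3 with Hk2 deleted. The treated sections sat close together and all lay below the healthy one. The log2 fold change was -1.11 ± 0.21, or 2.16-fold lower (edgeR adjusted p = 0.00111), and F11 was called in 7 of 7 alternatives; it was -1.28 without fibrotic replicate 1 and -0.97 without replicate 2. Its neighbour Klkb1 lies 4.633 kb away on chromosome 8 and encodes prekallikrein, a related protease of the contact system. Klkb1 was at 191 in healthy liver, 121 and 123 in fibrotic replicates 1 and 2 and 113 with Hk2 deleted, again without overlap, but with a log2 fold change of -0.65 ± 0.24 it was not called (edgeR adjusted p = 0.0822); it was -0.63 without fibrotic replicate 1. The other contact genes, F12 (factor XII) and Kng1 (kininogen), had values of -0.19 and -0.17. The other proteases and cofactors of clotting (F2, F3, F5, F7, F9 and F10) had values from -0.37 to -0.15, and the anticoagulant and fibrinolytic genes Proc, Pros1 and Plg values from -0.48 to 0.14, with none called.

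The fibrinogen genes Fga, Fgb and Fgg encode the 3 chains of the fibrin precursor and lie together within 42.14 kb of chromosome 3. Their promoter windows are shown because the 3 genes had like values in every comparison below: each line gives the 250 bases before the annotated start, 5′ to 3′ on the gene's strand, from RefSeq on GRCm38.p6 (Fgg chr3:83007474-83007723, Fga chr3:83025903-83026152, both plus strand, and Fgb chr3:83049864-83050113, minus strand). Capitals mark matches to CTGGGA, a hexamer known from interleukin-6 response elements of fibrinogen genes, searched on both strands.
Fgg: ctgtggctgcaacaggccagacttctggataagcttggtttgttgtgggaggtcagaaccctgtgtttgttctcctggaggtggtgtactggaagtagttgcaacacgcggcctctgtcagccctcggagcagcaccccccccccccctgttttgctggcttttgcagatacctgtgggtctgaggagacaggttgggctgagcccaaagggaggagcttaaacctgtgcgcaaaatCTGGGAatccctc
Fga: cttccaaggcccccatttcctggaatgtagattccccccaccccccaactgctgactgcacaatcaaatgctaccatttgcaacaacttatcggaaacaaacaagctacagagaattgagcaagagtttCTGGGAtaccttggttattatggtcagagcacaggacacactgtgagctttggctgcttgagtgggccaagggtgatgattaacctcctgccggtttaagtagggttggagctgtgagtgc
Fgb: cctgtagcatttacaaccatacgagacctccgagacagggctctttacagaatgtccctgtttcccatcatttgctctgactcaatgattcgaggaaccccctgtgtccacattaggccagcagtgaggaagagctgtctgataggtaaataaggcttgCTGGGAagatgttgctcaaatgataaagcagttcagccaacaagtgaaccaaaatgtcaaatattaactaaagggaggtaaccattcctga
Each window held 1 match. At least 1 match was present in 27.0% of 32851 mouse promoter windows of that length and in 13 of the 29 cascade genes with an entry. A match is a description of letters and not of a bound site.

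Fga was at 7118 normalised CPM in healthy liver, 2815 and 4978 in fibrotic replicates 1 and 2 and 7583 with Hk2 deleted. Fgb was at 10397, 4853, 7236 and 11093, and Fgg at 4953, 1981, 3202 and 5094, in the same order. All 3 chains thus had the same order of sections, with fibrotic replicate 1 the lowest, replicate 2 next, and the healthy and Hk2-deleted sections close together above both. The spread between the fibrotic pair was wide, and edgeR called none of the 3 against the healthy section: the log2 fold changes were -0.87 ± 0.66, -0.78 ± 0.74 and -0.93 ± 0.59 (edgeR adjusted p = 0.424, 0.53 and 0.324). DESeq2 called Fgg lower (DESeq2 adjusted p = 0.0231). Without fibrotic replicate 1 the values were -0.51, -0.52 and -0.63. F13b, a carrier subunit of the enzyme that cross-links fibrin, was flatter, at 389, 329, 370 and 334.

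**Figure D2:**
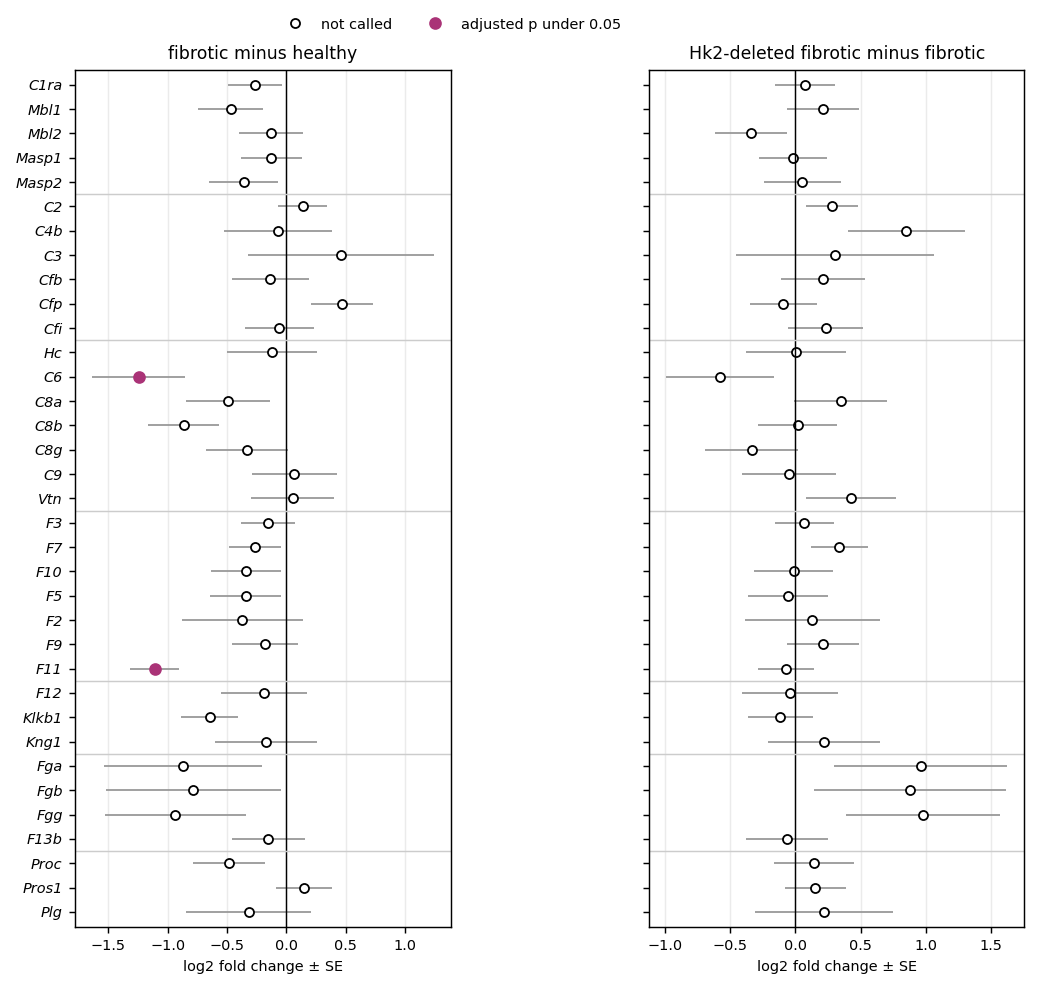
Log2 fold change of each gene (x axis) with its standard error, for fibrotic against healthy sections on the left and Hk2-deleted fibrotic against fibrotic on the right; filled points passed an adjusted p under 0.05, and Cfd is left out. C6 (-1.24) and F11 (-1.11) are the filled points, and the 3 fibrinogen genes lie between -0.93 and -0.78 on the left and between 0.88 and 0.98 on the right.

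The second whole-section question was what Hk2 deletion in Pdgfrb-expressing cells did to the cascade genes of fibrotic liver. None of the 36 genes passed edgeR's test, where 0.227% of all genes did (0.142% higher and 0.0850% lower), and none was called by DESeq2 or by limma on spot means. At an unadjusted p under 0.05 there were 0 by edgeR, 4 by DESeq2, 5 by limma and 8 by edgeR with library size alone. This comparison uses the same fibrotic sections as the one above, so opposite signs in both are not separate evidence. The fibrinogen genes had values for the Hk2-deleted against the fibrotic sections of 0.96 ± 0.66 (Fga), 0.88 ± 0.74 (Fgb) and 0.98 ± 0.59 (Fgg) on the log2 scale, with edgeR adjusted p = 1 for each. C4b had a value of 0.85 ± 0.45, also not called. Without fibrotic replicate 1 these 4 values were 0.61, 0.62, 0.67 and 0.66. With library size alone as the scaling, the 4 were called. The Hk2-deleted section lay above both fibrotic sections for 18 genes, below both for 3 (C8g, Klkb1 and Mbl2) and between them for 15. These orders, too, were not counted over all genes. Beside this, 3 of 15 acute phase genes outside the cascade list were called higher there, Saa3 by 3.50, Lcn2 by 2.10 and Orm3 by 1.66 on the log2 scale, and the list's median was 1.13; DESeq2 called Orm3 alone of these, and without fibrotic replicate 1 the values were 5.22, 1.61 and 1.28; the part of such a response in the fibrinogen values was not tested.

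A larger number of the cascade genes passed the test for position within the lobule. Blood enters a liver lobule at the portal vein and leaves at the central vein, and spots were ranked within each section by 21 landmark genes, none of them a cascade gene; of 3 equal parts, the top one is called pericentral and the bottom one periportal. Of 35 genes tested, 18 were lower in pericentral spots and 1 was higher (edgeR, adjusted p under 0.05), against 5.24% lower, 5.77% higher and 11.0% in either direction over all 13095 genes. The median log2 ratio was -0.36, against 0.00 over all genes. A negative ratio in all 4 sections was found for 26 genes, a count not made over all genes. Other secreted hepatocyte proteins did likewise: 11 of 20 were lower, with a median of -0.43. With library size alone, which moved the median of all genes to 0.21, 14 were called lower and 4 higher (C6, Masp1, Mbl1 and Pros1).

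The periportal genes covered several roles. All of the pore-forming list except C6 was lower pericentrally: Hc, C8a, C8b, C8g, C9 and Vtn had log2 ratios from -0.62 to -0.45. So were the C3-step genes C2, C4b, Cfb and Cfi, the lectin protease gene Masp2, the clotting factor genes F7, F9 and F10, Kng1, the kininogen gene, and all fibrinogen genes (Fga -0.72 ± 0.13, Fgb -0.72 ± 0.13, Fgg -0.69 ± 0.12). C9, the protein that polymerises into the pore wall, fell from 528 periportal to 319 pericentral normalised CPM in healthy liver, from 444 to 288 and from 680 to 469 in fibrotic replicates 1 and 2, and from 541 to 361 with Hk2 deleted. Each section thus had the higher level at the portal side. For C9 the log2 ratio was -0.62 ± 0.07 (edgeR adjusted p = 0.00269).

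The 16 genes not called had ratios from -0.39 (Plg, plasminogen) to 0.22 (Masp1), with F11 at 0.00 and Pros1 at 0.06.

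C6 ran against the rest of its complex. Its level was 309 periportal and 466 pericentral in the healthy section, 62.4 and 94.4 in fibrotic replicate 1, 182 and 287 in replicate 2, and 90.9 and 126 in the Hk2-deleted section. The pericentral side was higher in 4 of 4 sections although the sections themselves differed several fold, and the log2 ratio was 0.58 ± 0.06 (edgeR adjusted p = 0.00241). Over 5 equal groups of spots the CPM of C6 climbed at each step in every section, from 242 to 441 in the healthy one. Across spots, C6 had a Spearman correlation with Alb of -0.35 in healthy liver, -0.23 and -0.28 in fibrotic replicates 1 and 2 and -0.08 with Hk2 deleted; spots share a section, and these are descriptions.

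**Figure D3:**
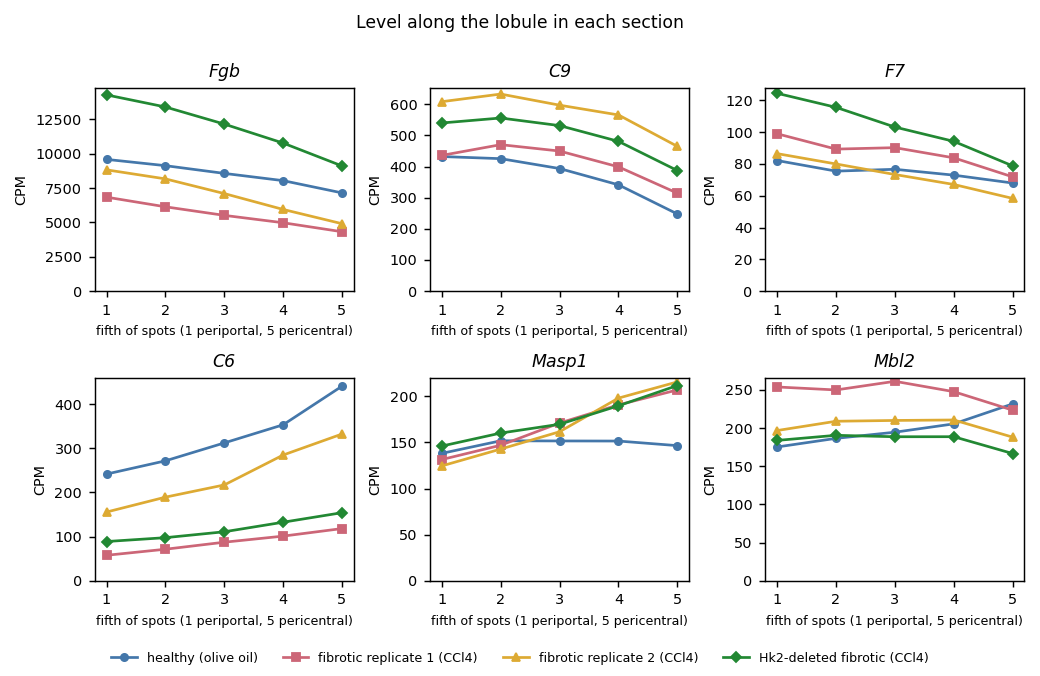
CPM of 6 cascade genes (y axis, from 0) over 5 equal groups of spots ranked from periportal (1) to pericentral (5), with 1 line per section. Fgb, C9 and F7 decline toward the central vein in each section, C6 climbs in each (242 to 441 CPM in the healthy section), and Masp1 and Mbl2 have another slope in the healthy section than in the CCl4-treated ones.

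C6, C8a and C9 were called in 10 of 10 alternatives to this test. The total of 19 calls rested on the sections used: it was 5 without fibrotic replicate 1, 3 without replicate 2, 4 without the Hk2-deleted section and 30 without the healthy one. The ratios moved little: the median was -0.37, -0.34, -0.35 and -0.42 in the same order, with 30 or 31 of 35 negative. The median UMI count per spot was 19929 periportal and 12067 pericentral in the healthy section, 12400.5 and 17396 in fibrotic replicate 1, 13338 and 13366 in replicate 2, and 16402 and 13755.5 in the Hk2-deleted section, so the direction of the depth gap changed between sections; its part in the ratios was not tested. The summed hepatocyte markers were lower pericentrally in each section, for example 160231 against 216628 CPM in the healthy one and 109689 against 113117 CPM in the Hk2-deleted one. These sums are plain CPM and the ratios above are normalised, so their sizes cannot be compared.

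The gradient itself differed between CCl4 and olive oil for 19 of 36 genes by edgeR's zone by treatment term: 17 had a lower pericentral over periportal ratio with CCl4 and 2 a higher one, where 19.9% of all 13350 genes were called, 11.0% of them lower and 8.90% higher as shares of all genes. The median difference of the 36 genes was -0.23 on the log2 scale, against 0.02 over all genes. Other secreted hepatocyte proteins did likewise in this term: 10 of 20 were called lower and 0 higher, with a median difference of -0.29. For Fgb the log2 ratio was -0.44 in healthy liver, -0.76 and -0.95 in fibrotic replicates 1 and 2 and -0.73 with Hk2 deleted, so the periportal bias was steeper in all 3 treated sections (difference -0.38 ± 0.11, edgeR adjusted p = 0.0162). Fgb was not called without fibrotic replicate 1, at a difference of -0.41. Fga and Fgg did the same, with differences of -0.40 ± 0.10 and -0.45 ± 0.10. F9, which encodes the clotting protease missing in haemophilia B, went from -0.16 in the healthy section to between -0.57 and -0.50 in the treated ones.

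With the main scaling, the mannose-binding lectin genes lay on the pericentral side in the healthy section and not in the treated ones. With library size alone, Mbl1 was called higher in pericentral spots over all sections together. The zone differences of Mbl1 and Mbl2 with CCl4 were still called lower with that scaling. Mbl2 had a log2 ratio of 0.20 in healthy liver, where it was higher pericentrally, and of -0.34, -0.31 and -0.30 in fibrotic replicates 1 and 2 and the Hk2-deleted section. The sign was opposite in all treated sections, and the difference was -0.52 ± 0.09 (edgeR adjusted p = 0.000491). Mbl1 went from 0.36 to values between -0.15 and 0.00, a difference of -0.43 ± 0.09. Masp1, a protease that travels with these lectins, went the other way, from -0.04 in the healthy section to 0.30, 0.40 and 0.23 (difference 0.35 ± 0.09, edgeR adjusted p = 0.0143). Cfp, which leukocytes also express, went from -0.50 in the healthy section to -0.06, 0.15 and 0.11. Its difference was 0.55 ± 0.10 (edgeR adjusted p = 0.00103). Of the pore-forming list, C8g was called, with a difference of -0.38, while C6, Hc, C8a, C8b, C9 and Vtn had differences of -0.18 to 0.14 and were not called; no test compared them with the genes that were.

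**Figure D4:**
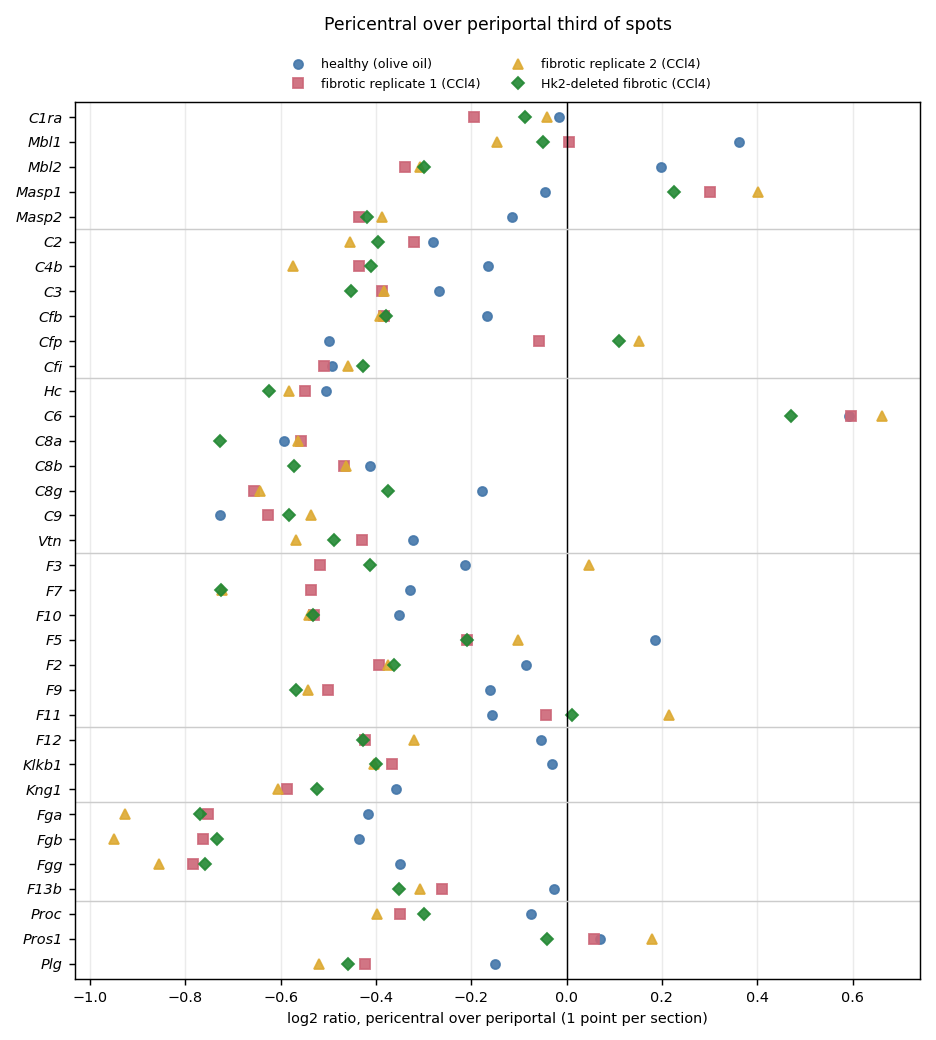
Log2 ratio of pericentral over periportal spots for 35 genes, with 1 point per section and a vertical line at no difference. C6 is to the right of the line in all sections (0.47 to 0.66), the fibrinogen genes lie to the left with the healthy section nearest to it, and Mbl1 and Mbl2 lie right of it in the healthy section (0.36 and 0.20).

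The healthy ratio lay above all 3 treated ratios for 26 of 35 genes, below them for 4 and between them for 5. These orders were not counted over all genes. Without fibrotic replicate 1, 14 of the 36 were called. A smaller set of 5 genes (Mbl1, Mbl2, Fgg, Masp1 and Cfp) were called when collagen-high spots, described next, were left out of both zones. With library size alone as the scaling 7 were called, 3 lower and 4 higher (C9, Cfp, F11 and Masp1). Mbl1, Mbl2, Fgg and Cfp were called in 9 of 9 alternatives. Neutrophil markers summed to 707 CPM pericentrally and 367 periportally in fibrotic replicate 1, 1580 and 730 in replicate 2, 622 and 334 in the Hk2-deleted section and 19.0 and 15.3 in the healthy section; their part in these differences was not tested.

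The next question was what the cascade genes did where collagen transcripts were dense. Collagen-high spots were the 10% of spots of a section with the largest share of Col1a1, Col1a2 and Col3a1 UMIs, and they were compared with all other spots within the 3 CCl4-treated sections. Of 35 genes, 30 were lower in collagen-high spots and 0 higher (edgeR), with a median log2 ratio of -0.62 against 0.01 over all genes. Of all 13496 genes, 43.7% were called, 22.0% lower and 21.7% higher. The other secreted hepatocyte proteins were lower in 20 of 20 cases, also with a median of -0.62. With library size alone, which moved the median of all genes to 0.34, 25 were called lower and 5 (C6, Cfp, F3, Masp1 and Pros1) higher.

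The largest ratios were those of C9 (-0.88 ± 0.07), Fgg (-0.86 ± 0.06), Fga (-0.84 ± 0.06), Fgb (-0.83 ± 0.07) and C8a (-0.80 ± 0.07). Fgg stood at 2282 normalised CPM in other spots and 1393 in collagen-high spots of fibrotic replicate 1, at 3652 and 1938 in replicate 2, and at 5944 and 2987 in the Hk2-deleted section. In each treated section the collagen-high spots held the lower level, and the edgeR adjusted p was 1.84e-07. In the healthy section, where Col1a1 was at 9.40 normalised CPM against 168 to 351 in the treated sections, Fgg was at 5274 and 4636, a log2 ratio of -0.19.

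The 5 genes that were not called are C6, Masp1, F3, Cfp and Pros1. C6 was at 86.9 and 89.5 normalised CPM in other and collagen-high spots of fibrotic replicate 1, at 254 and 262 in replicate 2 and at 116 and 118 in the Hk2-deleted section, a log2 ratio of 0.05 ± 0.05. The levels of both kinds of spot were thus close in every treated section, whatever the level of the section. F3 encodes tissue factor, the membrane trigger of clotting that cells around vessels carry, and it was at 7.7 and 9.5, 8.4 and 9.8, and 8.6 and 9.8 in the same order. All treated sections had the higher level in collagen-high spots, but the ratio of 0.25 ± 0.13 did not pass (edgeR adjusted p = 0.122). Pros1, the gene for protein S, a cofactor of protein C that endothelial cells make as well, had a ratio of -0.16 ± 0.07, negative in all treated sections and called lower in 2 of the 9 alternatives. Cfp had a ratio of -0.08 and Masp1 one of 0.10 ± 0.07. Masp1 was called higher with library size alone and when spots next to or holding a Msln or Upk3b UMI were left out.

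**Figure D5:**
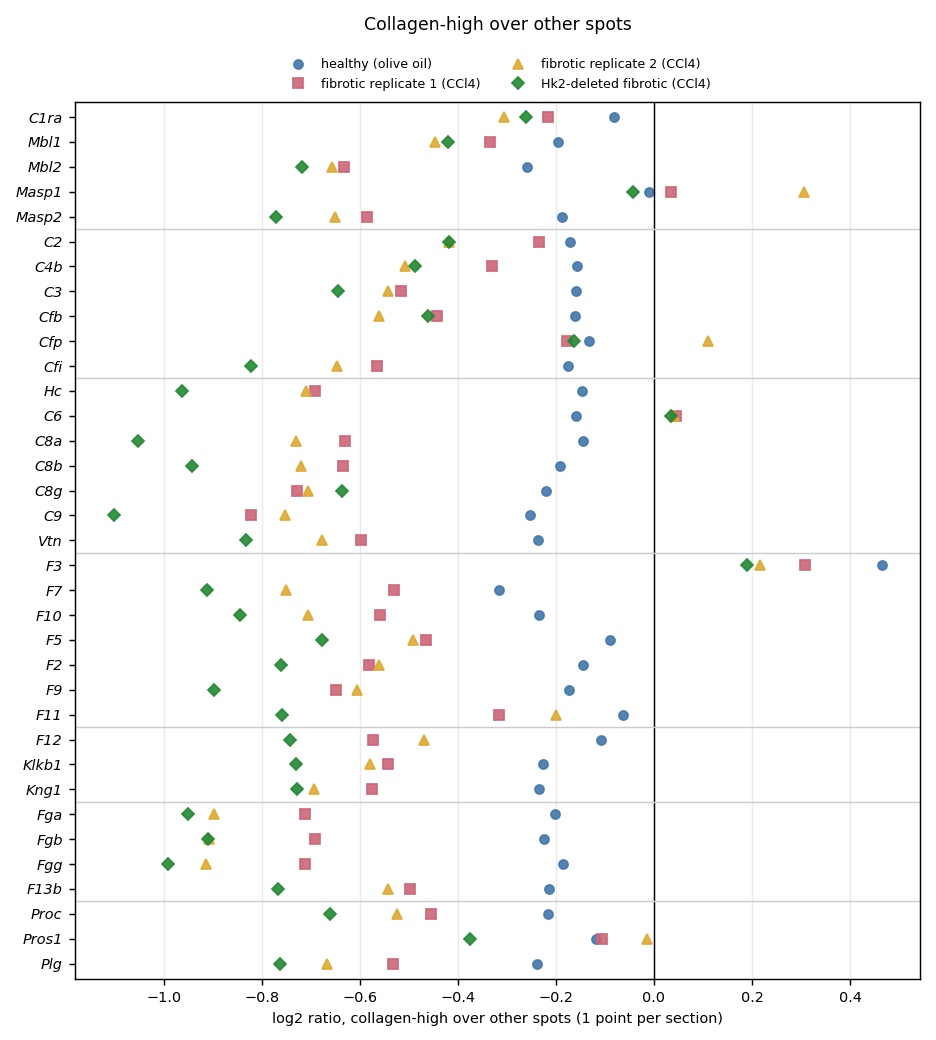
Log2 ratio of collagen-high over other spots for 35 genes, with 1 point per section and a vertical line at no difference; the healthy section was not part of the test. Most genes lie left of the line, with the healthy section nearest to it, the Hk2-deleted section is the farthest left for 29 genes, and F3 is right of it in all sections (0.19 to 0.46).

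Hepatocyte markers moved with these ratios: their sum was 143230 CPM in collagen-high and 175155 in other spots of fibrotic replicate 1, 131163 and 154779 in replicate 2 and 95235 and 114641 in the Hk2-deleted section. Stellate and fibroblast markers moved the opposite way, from 612 to 1306, from 475 to 1221 and from 438 to 1203 CPM. These sums are plain CPM and the ratios above are normalised, so their sizes cannot be compared. On the normalised scale the log2 ratio of Alb was -0.62 and -0.61 in fibrotic replicates 1 and 2 and -0.69 with Hk2 deleted. Of the other hepatocyte markers, Apoa1, Ttr and Trf fell less in each treated section and Serpina1c fell more. Between 68.4% and 76.7% of the collagen-high spots of treated sections lay in the pericentral part, against 39.2% in the healthy section. Within the pericentral part alone, a comparison chosen after the data were seen, the same 30 genes were lower, with a median of -0.48. Without fibrotic replicate 1 the count was also 30, of the same genes.

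No single gene passed the test for a different collagen-high ratio with Hk2 deletion. By edgeR's spot kind by genotype term 0 of 35 genes were called, where 1.28% of all genes were (1.11% higher and 0.165% lower). At an unadjusted p under 0.05 there were 9 by edgeR and 1 by DESeq2, which called 0. The log2 ratio in the Hk2-deleted section was below both fibrotic sections for 29 of the 35, between them for 5 and above them for 1. How many of all genes had each order was not counted. The median difference was -0.16 with 31 of 35 negative, against a median of 0.01 over all genes. Other secreted hepatocyte proteins were shifted alike, with a median of -0.14, 16 of 20 negative and 0 called. F11 had ratios of -0.32 and -0.20 in fibrotic replicates 1 and 2 and -0.76 with Hk2 deleted, a difference of -0.47 ± 0.15 (edgeR adjusted p = 0.122). C8a had -0.63 and -0.73 against -1.05, a difference of -0.36 ± 0.11 (edgeR adjusted p = 0.0643), and was called when the densest 5% of spots were taken. C9, with -0.82 and -0.75 against -1.10, was called within the pericentral part. The differences of F11, C8a and C9 were -0.57, -0.34 and -0.36 without fibrotic replicate 1. Spots that held or touched a spot with a UMI of the mesothelial genes Msln or Upk3b made up 49.2% and 2.33% of the collagen-high spots in fibrotic replicates 1 and 2 and 66.1% in the Hk2-deleted section, and without such spots 0 genes were called and 0 were under an unadjusted p of 0.05, while the median difference was -0.14 with 31 of 35 negative.

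The authors' deposited table gives a spatial score per gene and section, Moran's I, which is high where neighbouring spots hold like levels. By the scores of the authors' deposited table, 4 cascade genes (C3, Fga, Fgb and Fgg) were above 99% of the listed genes in every section, and 20 were above 90%. The Moran's I of Fgb was 0.331 in the healthy section, 0.235 and 0.385 in fibrotic replicates 1 and 2 and 0.219 in the Hk2-deleted section in the authors' deposited table, while that of F11 was 0.006 to 0.013. F11 was at 37.7 to 91.2 normalised CPM, and the part of low counts in its score was not tested. Across spots the fibrinogen pairs were the 3 most correlated pairs of cascade genes: Fga with Fgb had a Spearman correlation of 0.53 in healthy liver, 0.66 and 0.79 in fibrotic replicates 1 and 2 and 0.74 with Hk2 deleted. In the healthy section Fga was as closely tied to Alb (0.57) as to Fgb, while in the Hk2-deleted section it was less so (0.34). These correlations share spot depth and tissue quality and carry no test.

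Partners of the cascades outside the list of 37, many of them made by leukocytes or vessel cells, were counted in the same fits. Of 26 complement regulators and receptors tested, 6 were higher in fibrotic than in healthy sections and 2 lower, where 13.7% of all genes were called; among them were the leukocyte integrin Itgax (2.69 on the log2 scale), the C5a receptor C5ar1 (2.26) and Itgam (1.83), while Susd4, a membrane inhibitor of complement, fell by 5.02 (77.1 normalised CPM in the healthy section and 1.79 to 3.06 in the others). Of 33 other genes of clotting and fibrinolysis, 6 were higher and 1 lower, with Plat, the tissue plasminogen activator (3.17), the urokinase receptor Plaur (2.22), F13a1 (1.37) and Plau (1.19) the largest called changes; DESeq2 did not call F13a1 and Plau. In collagen-high spots 10 of 26 complement partners were higher and 10 lower, and 11 of 32 clotting partners were higher and 17 lower, where 43.7% of all genes were called. There C7, the pore protein that binds after C6, was higher by 1.24, where the ratio of C6 was 0.05. C7 was also the complement partner called in the Hk2-deleted section, at 22.1 normalised CPM against 11.3 and 8.67 in fibrotic replicates 1 and 2 and 5.64 in healthy liver (log2 fold change 1.14 ± 0.21, edgeR adjusted p = 0.0178). DESeq2 did not call it (DESeq2 adjusted p = 0.327), and the value was 1.35 without fibrotic replicate 1.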

How the data were processed

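The deposited matrices hold whole UMI counts for each gene in each spot and come from Space Ranger 2.0.0 per the file headers. The build was mm10 per the submitters' processing notes, and no probe set is named in the sources used here. Beside them, the authors deposited a spatial score (Moran's I) per gene and section, which was used as given. Members and gene lists were chosen with earlier results of these data known, and all members may be named. Of the 4 partner lists (complement regulators and receptors, other clotting genes, secreted hepatocyte proteins, acute phase), up to 4 called genes with the largest change may be named per comparison.

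Counts were summed per section, per zone (3 equal parts of the spots, ranked by 9 pericentral minus 12 periportal landmarks), or per kind of spot, because the spots of a section are no replicates. In R 4.3.3, edgeR 4.0.16 (TMM scaling, filterByExpr, quasi-likelihood test) was fitted to all genes passing the filter, and a gene was called where its p, adjusted by Benjamini-Hochberg, was under 0.05. The whole-section fit had 3 groups and 4 sections, and the other fits had section as a block. The zone score used log2(CPM + 1). Levels are TMM-normalised CPM, except CPM where so called, and fold changes are log2 values ± standard error (SE). Levels of different genes are not compared. Intervals are exact Poisson at 95% and cover counting error only. The sections share 1710 spot barcodes of the array by position, which is how the assay works. DESeq2 1.42.0, limma 3.58.1, other scalings, filters, spot classes and left-out sections were alternatives, and the procedure was tested on simulated data. Images were not analysed here.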

Additional observations from a re-analysis of the deposited data

Results flagged for a closer look

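The pericentral over periportal ratio of 19 cascade genes differed between the CCl4-treated sections and the healthy one by edgeR's interaction term (3 sections against 1, the lone section assumed to vary like the others). In log2 units, CCl4 minus olive oil, the lectin pathway genes had differences of -0.43 (Mbl1), -0.52 (Mbl2), 0.35 (Masp1) and -0.30 (Masp2). At the C3 step they were -0.31 (C4b) and 0.55 (Cfp), and in the pore complex -0.38 (C8g). The clotting and contact factors gave -0.33 (F7), -0.36 (F5), -0.29 (F2), -0.38 (F9), -0.34 (F12) and -0.36 (Klkb1). The fibrin genes gave -0.40 (Fga), -0.38 (Fgb), -0.45 (Fgg) and -0.28 (F13b). Protein C and plasminogen gave -0.28 (Proc) and -0.32 (Plg). Of all genes tested, 19.9% were called in the same term, and of 20 other secreted hepatocyte proteins 10 were called, all lower.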

How the results depend on the processing

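Counts of called cascade genes moved by over 1.5 times in these cases. Between fibrotic and healthy sections, 3 became 6 (4 lower, 2 higher) with library size alone and 5 (4 lower, 1 higher) with each spot weighted equally in limma. Between Hk2-deleted and fibrotic sections, 0 became 4 with library size alone. Between zones, 19 ranged from 3 to 30 with a section left out. For the zone difference with CCl4, 19 became 7 with library size alone and 5 without collagen-high spots. For the collagen-high difference with Hk2 deletion, 0 became 1 (C8a) with the top 5 percent of spots and 1 (C9) within the pericentral part of the spots, which was chosen after seeing the data. Library size alone turned the collagen-high ratio of 3 cascade genes positive (C1ra 0.072, Cfp 0.24, Pros1 0.16) and that of 3 partners (Clu 0.047, Colec10 0.13, Mcfd2 0.15); the cause was not tested. The count of 30 for collagen-high spots, all lower, was 30 or 31 in the 9 alternatives run. With library size alone it was 25 lower and 5 higher. Without spots next to or holding a Msln or Upk3b UMI it was 30 lower and 1 higher (Masp1). Leaving out a fibrotic section from the whole-section fits leaves no residual degree of freedom, so these give values and no test. Sections of different groups came from different mice and were not paired, while zones and kinds of spot were compared within a section. Depth limits Cfd, which had 0 to 41 UMIs per section.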

Other observations

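Among the partner genes in the lobule, 5 of 26 complement regulators and receptors were higher in pericentral spots and 5 lower by edgeR (adjusted p under 0.05, all 4 sections), where 11.0% of all genes were called. C5ar1, the receptor for the C5a fragment, had a log2 ratio of 1.20 ± 0.22 (SE) and Susd4, a membrane inhibitor of complement, one of 0.99 ± 0.16, while C7 was lower by 0.74 ± 0.16. These calls rested on the sections used: of 41 called genes of the 4 partner lists, 36 were not called without fibrotic replicate 1, 38 without replicate 2 and 38 without the Hk2-deleted section. Of 31 other clotting genes, 4 were higher and 9 lower. Plat, the tissue plasminogen activator, was at 1.40 ± 0.28 and Thbd, the endothelial thrombin receptor thrombomodulin, at 0.92 ± 0.12. Of the 5 genes named, Thbd was called with each treated section left out. In the healthy section the ratios of C5ar1 and Plat were negative, at -0.30 and -0.72. In the treated ones they were 1.29 to 1.52 and 1.42 to 1.83. Plat was near the floor in the healthy section, at 0.55 periportal and 0.33 pericentral normalised CPM. The pericentral over periportal ratio of C5ar1 was also higher with CCl4, by 1.71 ± 0.34 (edgeR adjusted p = 0.00158), and that of Susd4 lower, by 0.72 ± 0.19 (edgeR adjusted p = 0.0129; DESeq2 adjusted p = 0.13).

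With Hk2 deletion, the collagen-high ratio of the macrophage complement receptor Vsig4 was lower by 0.43 ± 0.10 (edgeR adjusted p = 0.0046), with 1 Hk2-deleted section; DESeq2 did not call it (DESeq2 adjusted p = 1).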
